A study of Mus musculus with 6 samples.

Results

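The vascular endothelial growth factor (VEGF) system was followed through 9 genes in ischemic muscle, namely the ligands Vegfa, Vegfb, Vegfc and Pgf, the receptors Flt1, Kdr and Flt4 and the co-receptors Nrp1 and Nrp2. The genes were chosen by name, as the ligands, receptors and neuropilins of the family, and their expected counts were summed over all transcripts of each Entrez gene. They are 9 of the 18089 genes in the data, and all 9 were among the 14395 genes that passed the filter on low counts. The study asked whether loss of the lysophosphatidylserine receptor GPR174 changes recovery from hindlimb ischemia (HLI), in which both ends of a stretch of the femoral artery are tied and the stretch is removed. RNA was sequenced from the ischemic gastrocnemius of 3 wild-type (WT) mice and 3 Gpr174-/Y mice, 7 days after HLI in both groups. All were males on the C57BL/6 background and 8 to 10 weeks old, and the WT mice were littermates. Gpr174 is X-linked, so a -/Y male has no intact copy, and it was lost from every cell of the body, with no restriction to a cell type.

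VEGF-A is the main growth factor for blood vessel endothelium and acts chiefly through the receptor tyrosine kinase encoded by Kdr, whereas Flt1 binds VEGF-A tightly, signals weakly and restrains it. VEGF-B and placental growth factor, the product of Pgf, bind Flt1, while VEGF-C binds Flt4, the receptor of lymphatic endothelium, and neuropilins hold VEGF at its receptors and also bind class 3 semaphorins. In skeletal muscle the fibres make much of the VEGF-A, and the receptors are found mostly on endothelial cells, although Nrp1, Nrp2 and Flt1 are also used by macrophages and other cells.

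Library totals were 18417077 to 18695013 counts for WT and 19173036 to 19394469 for Gpr174-/Y muscle. The least taken as detectable was 3 counts, which covers counting error only. Scaled by these totals, 3 counts equal 0.155 to 0.163 CPM (counts scaled to a common library size). The CPM of genes given below are scaled by the TMM method instead. As a check of the labels, WT replicates 1, 2 and 3 held 8, 2 and 5 counts of Gpr174 itself, and the Gpr174-/Y replicates held 1, 0 and 0. The muscle genes Ckm and Myh4 were abundant in all 6 libraries, at 5003 to 17949 CPM and 6770 to 31349 CPM. Most genes differed between the groups: 54.6% of the 14395 tested genes had an adjusted p under 0.05, with 3891 (27.0% of those tested) higher and 3972 (27.6%) lower in Gpr174-/Y muscle. Replicate 2 lay between replicates 1 and 3 of its group for 77.1% of 9972 abundant genes in WT and 68.2% in Gpr174-/Y muscle, where a random order gives 33.3%, and for 6 and 8 of the 9 VEGF genes, respectively. With replicates 1 and 3 of each group alone, no gene passed with edgeR, and 5026 had an unadjusted p under 0.05. The labels number the replicates without naming the mice, and whether the 3 libraries of a group are independent was not tested, so n = 3 and the p-values given here rest on taking them as such.

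Vegfa and its blood vessel receptors were lower in Gpr174-/Y muscle, while Vegfc and Nrp2 were slightly higher. Of the 9 genes, Vegfa, Vegfb, Flt1, Kdr and Flt4 fell and Vegfc and Nrp2 rose at an adjusted p under 0.05, beside the 54.6% of all tested genes that passed it, and Pgf and Nrp1 did not pass. The groups did not overlap for the same 7 genes, against 65.6% of all tested genes. Vegfa alone of the 9 passed with an absolute log2 fold change above 1 as well, as 8.28% of tested genes did, and 4.84% of tested genes were called with a log2 fold change under -1. CPM values here are scaled by edgeR's TMM method, with which the median log2 fold change of all tested genes was 0.00. With total counts in place of TMM that median was 0.28, and 4 of the 9 genes were then higher (Vegfc, Pgf, Nrp1 and Nrp2) and 4 lower (Vegfa, Vegfb, Flt1 and Kdr), beside 50.7% and 14.0% of all tested genes.

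**Figure D1:**
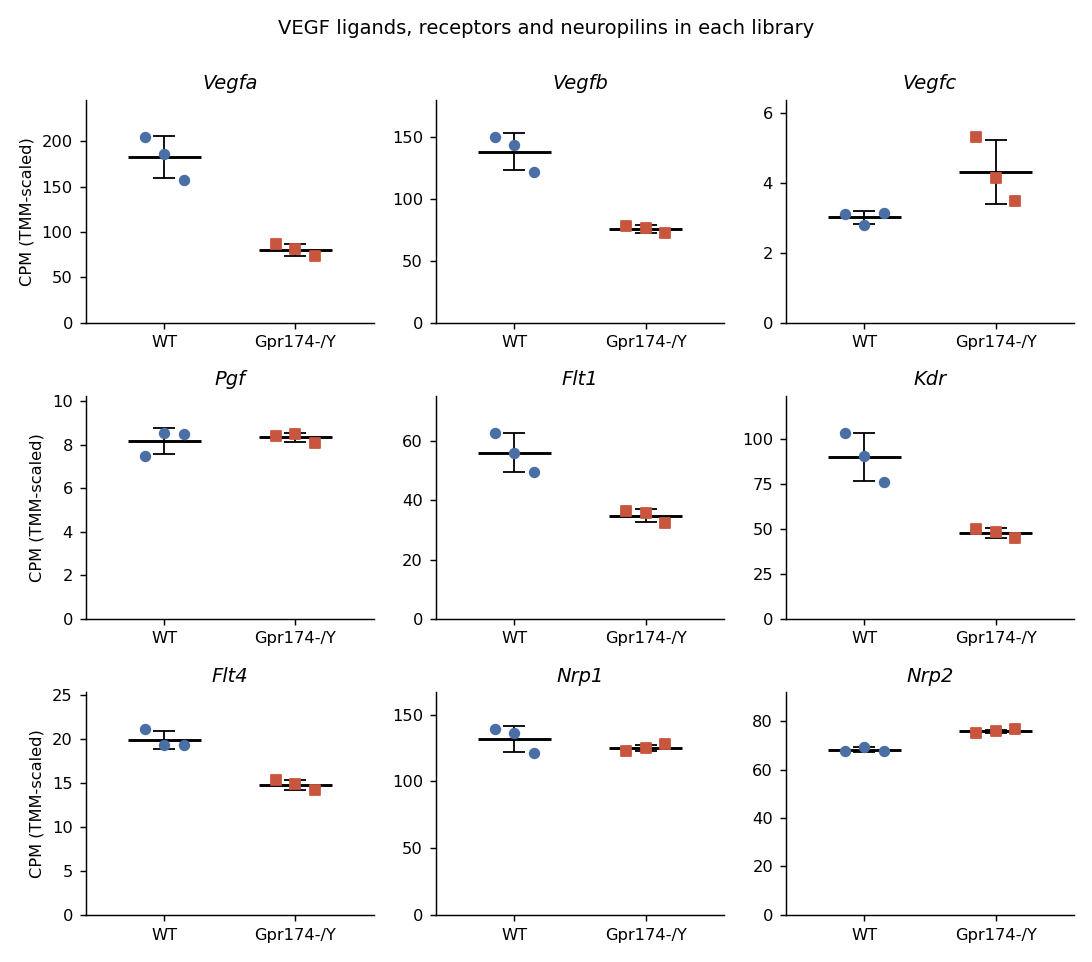
TMM-scaled CPM (y axes, from 0) of the 9 genes in 3 WT libraries (circles) and 3 Gpr174-/Y libraries (squares), with points from left to right for replicates 1, 2 and 3, the mean as a wide line and the SD as bars. Vegfa lay between 157 and 204 CPM in WT and between 73.7 and 86.7 CPM in Gpr174-/Y libraries, while the groups overlapped for Pgf and Nrp1.

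The sequences before the start sites of 4 of these genes are given for reference, since Vegfa, Kdr and Flt1 fell together and Vegfc moved the other way. Each is the 250 bases before the most upstream RefSeq start site on GRCm38.p6, written 5′ to 3′ on the strand of the gene. The stretches are chr17:46032378-46032627 (minus strand) for Vegfa, chr5:75978456-75978705 (minus strand) for Kdr, chr5:147726012-147726261 (minus strand) for Flt1 and chr8:54077282-54077531 (plus strand) for Vegfc. Capitals mark every match on either strand to GGGCGG (the GC box bound by SP factors), ACGTG or GCGTG (cores of hypoxia response elements), GCGGGGGCG or GCGTGGGCG (bound by EGR factors) and AAGGTCA (bound by estrogen-related receptors).
Vegfa: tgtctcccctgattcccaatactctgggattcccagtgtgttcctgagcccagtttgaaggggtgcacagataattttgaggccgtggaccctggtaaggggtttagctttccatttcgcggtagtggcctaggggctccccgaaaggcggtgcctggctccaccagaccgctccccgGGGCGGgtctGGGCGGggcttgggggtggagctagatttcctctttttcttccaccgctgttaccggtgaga
Kdr: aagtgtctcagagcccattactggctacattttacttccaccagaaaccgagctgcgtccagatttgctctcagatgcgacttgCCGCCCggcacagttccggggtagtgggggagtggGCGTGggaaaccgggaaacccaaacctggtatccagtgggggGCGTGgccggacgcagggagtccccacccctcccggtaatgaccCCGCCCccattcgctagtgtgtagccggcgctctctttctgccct
Flt1: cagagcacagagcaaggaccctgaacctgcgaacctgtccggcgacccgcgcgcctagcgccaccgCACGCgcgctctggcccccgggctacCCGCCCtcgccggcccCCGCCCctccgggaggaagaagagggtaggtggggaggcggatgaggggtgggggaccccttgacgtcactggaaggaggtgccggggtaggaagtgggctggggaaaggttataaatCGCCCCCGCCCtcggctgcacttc
Vegfc: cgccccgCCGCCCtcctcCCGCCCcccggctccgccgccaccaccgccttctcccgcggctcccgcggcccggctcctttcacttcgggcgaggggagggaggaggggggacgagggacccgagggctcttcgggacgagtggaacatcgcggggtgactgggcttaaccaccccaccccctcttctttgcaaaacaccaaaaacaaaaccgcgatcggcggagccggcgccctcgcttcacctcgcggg
The GC box was present before all 9 genes, against 32.7% of 32851 promoters of the same length. In Vegfa its matches began 72 and 62 bases before the start site, and no other listed motif matched there. GCGTG was present before 6 of the 9 genes at these sites, among them Kdr at 131 and 89 bases and Flt1 at 184 bases, and in 28.2% of all promoters. ACGTG, in 16.6% of all promoters, and GCGTGGGCG, in 0.536%, matched at none of the 9 most upstream start sites. A second Vegfa start site in the RefSeq table had ACGTG at 211, GCGTG at 218 and a GC box at 158 bases before it. The longer EGR motif GCGGGGGCG was present before Flt1, where it overlaps a GC box, and Vegfb, against 2.57% of all promoters. AAGGTCA matched before Nrp1 alone of the 9 and in 4.08% of promoters. A match is a string of letters and was not tested as a binding site, and no factor binding was measured in these samples.

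Among the ligands, Vegfa on chromosome 17 (Entrez 22339) fell most. WT replicates 1, 2 and 3 held 3281, 3125 and 2801 Vegfa counts and Gpr174-/Y replicates 1, 2 and 3 held 1814, 1716 and 1584, or 204, 186 and 157 CPM against 86.7, 80.8 and 73.7 CPM. Every Gpr174-/Y library was below every WT library, and the lowest WT library lay well above the highest Gpr174-/Y library. Mean levels were 183 ± 23.6 CPM in WT and 80.4 ± 6.51 CPM in Gpr174-/Y muscle (SD, n = 3 each). The log2 fold change was -1.18 (SE 0.11, 95% confidence interval -1.44 to -0.92, edgeR quasi-likelihood test with Benjamini-Hochberg adjustment, adjusted p = 0.000778), a 2.27-fold lower level, and 3.07% of tested genes had a lower value. With total counts it was -0.91 (SE 0.083, adjusted p = 0.000796).

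Vegfb on chromosome 19, a ligand of Flt1 linked to fatty acid handling and coronary vessels more than to sprouting, followed the same pattern. Its levels were 150, 143 and 121 CPM in WT replicates 1, 2 and 3 and 78.3, 76.8 and 72.3 CPM in the Gpr174-/Y replicates. The Gpr174-/Y libraries were again all below the WT libraries, and they were closer to each other than the WT libraries were. The log2 fold change was -0.86 (SE 0.087, adjusted p = 0.00089), a 1.82-fold lower level. Both of its RefSeq transcripts fell in the test across transcripts, in which 12.4% of 35524 tested transcripts passed: NM_001185164.1 had a log2 fold change of -1.10 (SE 0.12, adjusted p = 0.0158) and NM_011697.3 one of -0.66 (SE 0.10, adjusted p = 0.024). NM_001185164.1 took 43.7%, 40.9% and 41.4% of the Vegfb counts in WT replicates and 30.9%, 35.1% and 38.4% in Gpr174-/Y replicates, with no overlap (p = 0.1 by a 2-sided exact permutation, the lowest value possible with 3 against 3).

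Vegfc on chromosome 8, the growth factor of lymphatic vessels, was the least abundant member. WT libraries held 50, 47 and 56 Vegfc counts, and Gpr174-/Y libraries held 111, 88 and 75, or 3.11, 2.80 and 3.15 CPM against 5.30, 4.14 and 3.49 CPM. All Gpr174-/Y libraries were above the WT libraries, but Gpr174-/Y replicate 3 was only slightly above the highest of them. The log2 fold change was 0.51 (SE 0.18, adjusted p = 0.0448), a 1.43-fold higher level, and it did not pass without Gpr174-/Y replicate 1 (0.34, adjusted p = 0.101), WT replicate 2 (0.47, adjusted p = 0.132), WT replicate 1 (adjusted p = 0.066) or Gpr174-/Y replicate 2 (adjusted p = 0.0937), nor with DESeq2 (adjusted p = 0.0821). With total counts it was 0.78 (adjusted p = 0.00665). Pgf on chromosome 12, a second ligand of Flt1 that is induced in injured tissue, had 7.47, 8.51 and 8.48 CPM in WT and 8.41, 8.48 and 8.09 CPM in Gpr174-/Y replicates. These values overlapped, with a log2 fold change of 0.03 (95% confidence interval -0.17 to 0.23, adjusted p = 0.818), while with total counts it was 0.30 (adjusted p = 0.0328), close to the median of all genes under that scaling.

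The 10 Vegfa transcript rows did not have the steadiness of the gene sum. The counts of Vegfa as a whole had a coefficient of variation of 7.98% in WT and 6.77% in Gpr174-/Y libraries, but no row held over 10% of the Vegfa counts in all 6 libraries. NM_001317041.1 was the leading row in 4 libraries, with 2017 counts in WT replicate 1, 1242 in WT replicate 2, 969 in Gpr174-/Y replicate 1 and 474 in Gpr174-/Y replicate 3. In WT replicate 3 it had 2.69 counts, and NM_001287057.1 led with 1570 counts, or 56.1% of the Vegfa counts. In Gpr174-/Y replicate 2 NM_001110267.1 led with 494 counts, and NM_001287057.1, NM_001317041.1 and NM_009505.4 were each given 192.17 counts. For 8 of the 10 rows the share of the Vegfa counts overlapped between the groups. Of the 7 rows that passed the filter on low counts 1 fell, beside 12.4% of all tested transcripts called in either direction. For that row, NM_001110268.1, WT libraries held 60.8, 265 and 189 counts, and every Gpr174-/Y library held 0 (adjusted p = 0.028). Set against 3 counts per library, the WT mean was 59.0-fold higher in CPM of total counts. The 3 counts cover counting error and not the division of counts among rows, so 59.0-fold is no lower bound. The test does not carry the error of that division either. That row passed without WT replicate 1 but not in the other 5 fits that left out a single library. The other 6 rows tested had adjusted p from 0.282 to 0.983. Since the division among rows varied within the groups, the gene sum is used in what follows.

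**Figure D2:**
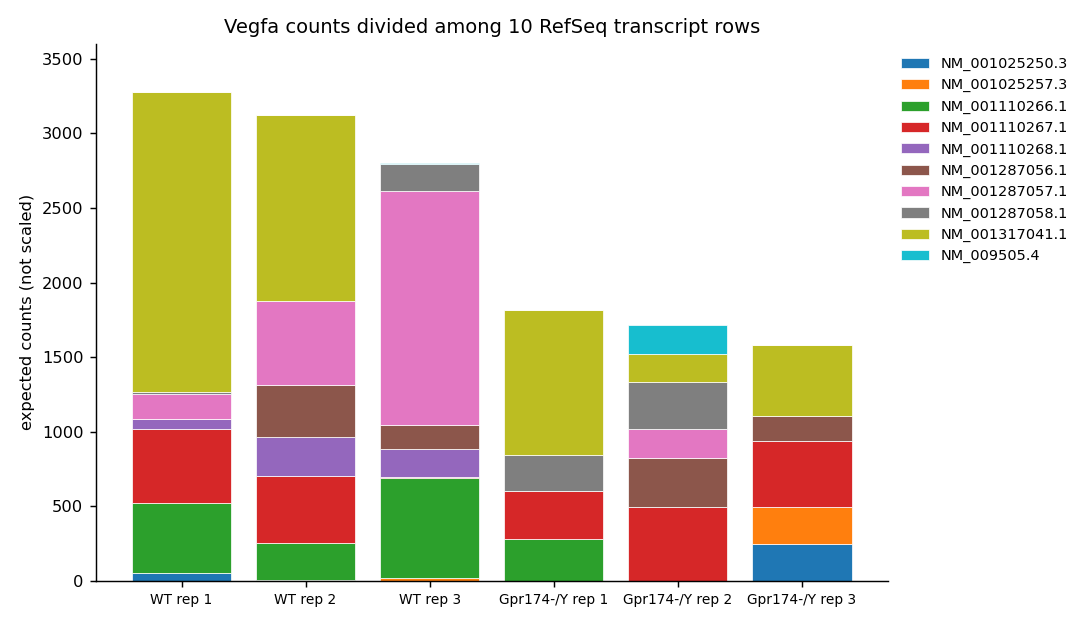
Expected counts, not scaled (y axis), of Vegfa in each of the 6 libraries (x axis), with 1 colour for each of the 10 RefSeq transcript rows. Bar heights fell from 2801 to 3281 counts in WT to 1584 to 1814 counts in Gpr174-/Y libraries, while the colours that make up each bar changed from library to library within a group.

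All 3 receptors fell. Kdr on chromosome 5, the principal signalling receptor for VEGF-A on endothelium, had 103, 90.2 and 76.2 CPM in WT replicates and 49.9, 48.1 and 44.9 CPM in Gpr174-/Y replicates. The groups were well apart, and WT libraries varied more than Gpr174-/Y libraries. The log2 fold change was -0.91 (SE 0.11, adjusted p = 0.00132), a 1.88-fold lower level. Its main transcript, NM_010612.3, with 92.3% to 100% of the Kdr counts, fell too (log2 fold change -0.80, SE 0.097, adjusted p = 0.0179).

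Flt1, also on chromosome 5, had 62.6, 56.1 and 49.4 CPM in WT replicates and 36.5, 35.7 and 32.4 CPM in Gpr174-/Y replicates, again without overlap. The log2 fold change was -0.68 (SE 0.095, adjusted p = 0.00185), a 1.61-fold lower level, and with total counts it was -0.41 (adjusted p = 0.00282). Of its transcripts NM_010228.4, which held 69.1% to 76.1% of the counts, fell (log2 fold change -0.72, adjusted p = 0.0258), and NM_001363135.1 had a log2 fold change of -0.50 (adjusted p = 0.0743). Flt4 on chromosome 11 showed the smallest difference of the receptors, with 21.1, 19.3 and 19.3 CPM in WT replicates and 15.3, 14.9 and 14.2 CPM in Gpr174-/Y replicates. These did not overlap either. Its log2 fold change was -0.43 (SE 0.065, adjusted p = 0.00243), a 1.34-fold lower level, and with total counts it was -0.15 (adjusted p = 0.0546).

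The neuropilins did not follow the receptors. Nrp1 on chromosome 8, the co-receptor that binds VEGF-A with Kdr, had 139, 136 and 121 CPM in WT replicates and 123, 125 and 128 CPM in Gpr174-/Y replicates. WT replicate 3 was the lowest library of all and the other WT libraries the highest, so the groups overlapped. The log2 fold change was -0.08 with TMM (95% confidence interval -0.23 to 0.08, adjusted p = 0.359) and turned to 0.20 with total counts (adjusted p = 0.018). Nrp2 on chromosome 1, the co-receptor used with Flt4, had 67.6, 69.5 and 67.6 CPM in WT replicates and 75.3, 75.7 and 76.6 CPM in Gpr174-/Y replicates. The values were tight within each group and did not overlap. The difference was small, with a log2 fold change of 0.15 (SE 0.042, adjusted p = 0.0208), a 1.11-fold higher level, and it did not pass with DESeq2 (adjusted p = 0.0702), without WT replicate 2 (adjusted p = 0.0669) or without any single Gpr174-/Y library (adjusted p = 0.0515 to 0.0881). With total counts its log2 fold change was 0.43 (adjusted p = 0.00121).

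**Figure D3:**
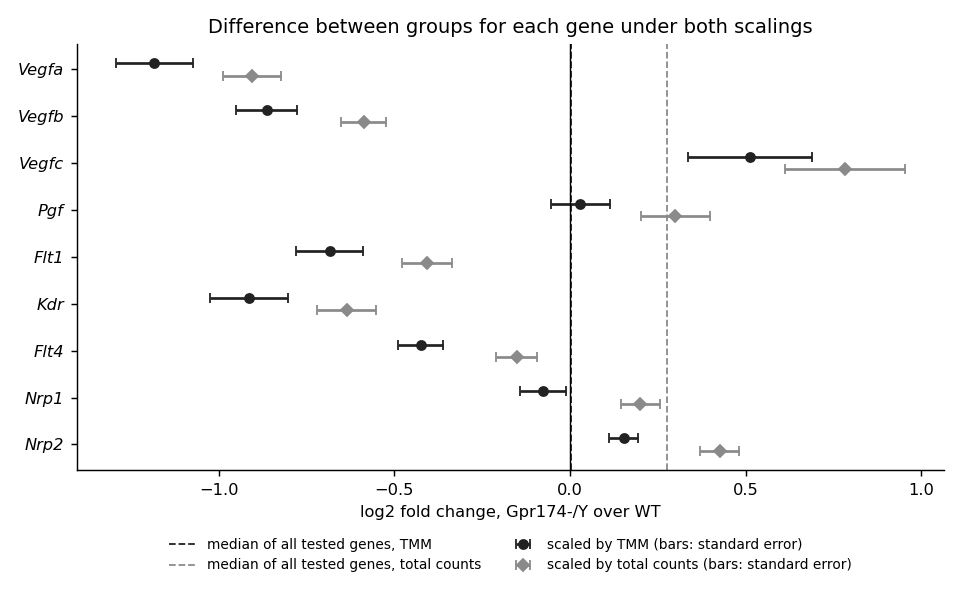
Log2 fold change of Gpr174-/Y over WT (x axis) for each of the 9 genes, with TMM (circles) and with total counts (diamonds), bars for the standard error and dashed lines for the median of all tested genes under each scaling. Vegfa, Vegfb, Flt1, Kdr and Flt4 lay below 0 under both scalings and Vegfc and Nrp2 above 0, while Nrp1 changed sign from -0.08 to 0.20.

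Levels of different genes were compared per length, as FPKM summed over the transcripts of a gene. In WT muscle the order of mean FPKM was Vegfb (105 ± 7.14), Vegfa (52.2 ± 4.52), Nrp1 (20.4 ± 0.707), Kdr (14.1 ± 1.65), Nrp2 (9.94 ± 0.388), Flt1 (7.64 ± 0.555), Pgf (5.26 ± 0.493), Flt4 (3.12 ± 0.09) and Vegfc (1.50 ± 0.125) (SD, n = 3). Each gene was above the next in that order in all 3 WT libraries. In Gpr174-/Y muscle Nrp2 at 13.7 ± 0.366 FPKM stood above Kdr at 8.92 ± 0.308 FPKM, and Pgf at 6.59 ± 0.199 FPKM above Flt1 at 5.81 ± 0.242 FPKM, so both pairs had changed places. Only Flt4, at 2.86, 2.82 and 2.76 FPKM, and Vegfc, at 3.13, 2.48 and 2.13 FPKM, overlapped as neighbours there. The order was the same by TPM.

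Within a library, ratios of FPKM do not depend on how libraries are scaled, and all 5 ratios examined had groups that did not overlap. The groups of single genes did not overlap for 65.6% of all tested genes, and the share for other gene pairs was not computed. The ratio of Vegfa to Kdr was 3.72 ± 0.119 in WT and 3.13 ± 0.108 in Gpr174-/Y muscle, and that of Vegfa to Vegfb was 0.496 ± 0.0133 and 0.400 ± 0.0207 (SD, n = 3). Flt1 to Kdr, the restraining to the signalling receptor, was 0.545 ± 0.0263 in WT and 0.651 ± 0.00872 in Gpr174-/Y muscle. Nrp1 to Kdr moved from 1.46 ± 0.133 to 2.63 ± 0.194. The ratio of Vegfc to Flt4 was 0.472, 0.457 and 0.514 in WT replicates and 1.09, 0.879 and 0.772 in Gpr174-/Y replicates. Each ratio had a 2-sided exact permutation p of 0.1, and 0.1 after Benjamini-Hochberg adjustment over the 5 ratios, which is the lowest value possible with 3 against 3.

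Cell type markers moved with these genes. All 16 endothelial markers, such as Cdh5 and Pecam1, which hold endothelial cells together, fell, with a median log2 fold change of -0.73 and summed levels of 1512 to 1678 CPM in WT and 936 to 1062 CPM in Gpr174-/Y libraries. None of the 16 had 3 or fewer counts in a library. With total counts the log2 fold changes of Eng and Ecscr were 0.00 and those of the other markers were below 0. Pecam1 had a log2 fold change of -0.63 (adjusted p = 0.00137) and Cdh5 one of -0.82 (adjusted p = 0.00122). All 15 markers of mature muscle fibres fell as well (median log2 fold change -1.44), from 140043 to 202876 CPM summed in WT to 62546 to 69937 CPM in Gpr174-/Y libraries. For the sums of both lists the libraries stood in the same order as for Vegfa, from WT replicate 1 at the top to Gpr174-/Y replicate 3. Some markers of both lists, such as Myh1 and Eng, instead rose from WT replicate 1 to WT replicate 3. The share of all tested genes in this order was not counted. Of 10 macrophage markers 8 rose and none fell, with summed levels of 1143 to 1652 CPM in WT and 2687 to 2718 CPM in Gpr174-/Y libraries, and of 10 regenerating fibre markers 7 rose and none fell (6869 to 9064 CPM and 8143 to 10222 CPM). In RNA from whole muscle, fewer cells of a type and less RNA per cell cannot be told apart, and the part of cell makeup in the differences of Vegfa, Vegfb and the receptors was not tested.

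The other marker lists were mixed. Of 6 lymphatic markers 2 (Pdpn and Prox1) passed and rose (64.1 to 74.5 CPM summed in WT and 79.5 to 94.2 CPM in Gpr174-/Y libraries). The other 4 (Lyve1, Ccl21a, Mmrn1 and Reln) had log2 fold changes of -0.57 to -0.23 that did not pass, the median of the list was -0.30, and Pdpn alone went from 30.7 to 37.9 CPM in WT to 54.8 to 57.8 CPM in Gpr174-/Y libraries. Smooth muscle and pericyte markers were split, with 4 of 10 higher and 4 lower (1346 to 1465 CPM and 1485 to 1624 CPM), as were fibroblast markers, with 3 of 8 higher and 4 lower (15377 to 21858 CPM and 27551 to 31037 CPM). Acta2 alone went from 225 to 331 CPM in WT to 569 to 686 CPM in Gpr174-/Y libraries, while Myh11, Rgs5, Kcnj8 and Abcc9 fell. The fibroblast markers that rose were the collagens Col1a1, Col1a2 and Col3a1, while Pdgfra, Dcn, Lum and Pi16 fell. Col1a1 alone went from 4975 to 8118 CPM in WT to 10972 to 12487 CPM in Gpr174-/Y libraries. Of 6 Schwann cell markers 1 fell (120 to 153 CPM and 112 to 137 CPM), of 4 regulatory T cell markers tested 1 fell (20.5 to 27.4 CPM and 24.6 to 26.1 CPM), and of 2 neutrophil markers tested 1 rose and 1 fell (22.2 to 28.9 CPM and 32.4 to 35.4 CPM). Ly6g of the neutrophil list and Ctla4 of the T cell list had at most 3 counts in every library.

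Receptors were also set against the endothelial markers of their own library, as log2 CPM minus the mean log2 CPM of the 16 markers, a difference that library scaling leaves in place. The marker mean itself differed by -0.67 on the log2 scale in Gpr174-/Y muscle. Flt1 stood at -0.18, -0.30 and -0.40 in WT replicates and -0.31, -0.29 and -0.33 in Gpr174-/Y replicates. These overlapped, and the difference of -0.01 was smaller than the pooled SD of 0.079 (2-sided exact permutation, p = 0.8). Kdr stood at 0.53, 0.39 and 0.22 in WT and 0.14, 0.14 and 0.14 in Gpr174-/Y replicates, a difference of -0.24 with no overlap, which was -0.16 without WT replicate 1. Flt4 was 0.24 higher relative to the markers in Gpr174-/Y muscle, Nrp1 0.59 higher and Nrp2 0.82 higher, each without overlap. For these 4 genes the exact permutation p was 0.1, the lowest possible, and 0.125 after Benjamini-Hochberg adjustment over the 5 comparisons. Set against the endothelial markers as a group, Flt1 alone of the 5 genes had overlapping groups. As the marker mean itself fell, a gene with unchanged CPM would stand 0.67 higher on this measure in Gpr174-/Y muscle. Flt4 and Nrp1 did not rise themselves with TMM (log2 fold changes of -0.43 and -0.08), so their higher values here reflect the lower marker mean. Nrp2 had a log2 fold change of 0.15, so its higher value is partly set by the markers. The share of all genes without overlap on this measure was not computed.

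**Figure D4:**
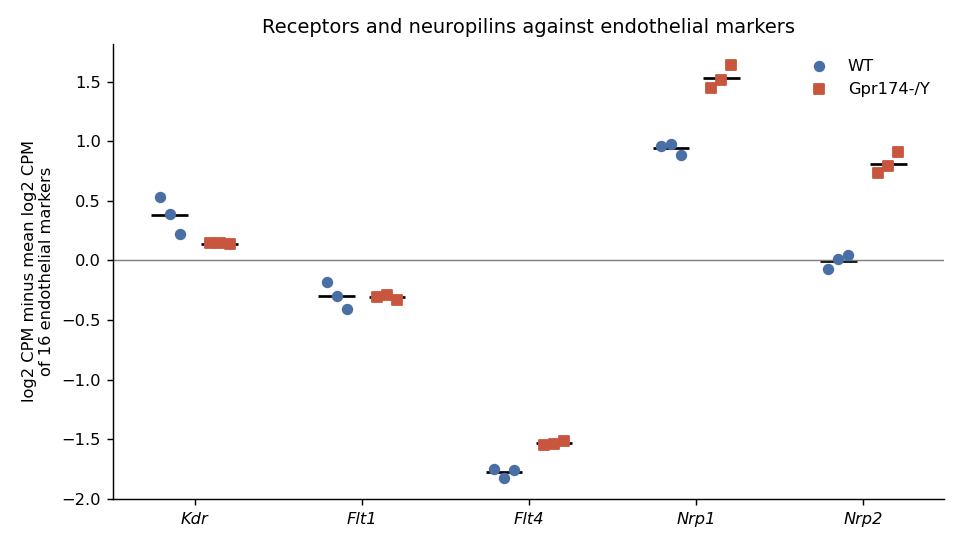
Log2 CPM of each receptor and neuropilin minus the mean log2 CPM of 16 endothelial markers in the same library (y axis), for WT (circles) and Gpr174-/Y (squares) libraries, with group means as lines. Flt1 overlapped between the groups, Kdr was 0.24 lower in Gpr174-/Y libraries, and Flt4, Nrp1 and Nrp2 were 0.24, 0.59 and 0.82 higher.

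Of 125 other genes of the pathway, 124 were tested, and 40 rose and 39 fell, with a median log2 fold change of 0.02, beside 27.0% of all tested genes that rose and 27.6% that fell. With total counts 65 rose and 16 fell, beside 7303 higher and 2010 lower among all tested genes. The list medians ran from -0.11 to 0.44 with TMM and from 0.16 to 0.71 with total counts, where the median of all tested genes was 0.28. Each pathway gene named below as having risen or fallen had the same sign with total counts, but falls were smaller there, with -0.04 for Sema3f, -0.04 for Plxna4 and -0.16 for Pcsk6.

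Of 9 tested genes for VEGF-D and the proteins that process VEGF ligands, 5 rose, 1 fell and 3 did not pass. Among all tested genes 27.0% rose and 27.6% fell. The median log2 fold change of the list was 0.44. Ccbe1, the cofactor for cleavage of VEGF-C, had 10.3, 16.4 and 23.4 CPM in WT replicates and 38.2, 39.3 and 40.2 CPM in Gpr174-/Y replicates. It rose by 1.23 on the log2 scale (SE 0.25, adjusted p = 0.00614), without overlap. Adamts14, a protease of the family that cleaves VEGF-C, rose by 1.22 (SE 0.10, adjusted p = 0.00068), while Adamts3, the protease best known for it, had a log2 fold change of 0.21 (adjusted p = 0.224). Pcsk6, a proprotein convertase, fell (log2 fold change -0.44, adjusted p = 0.0116), and Vegfd itself had a log2 fold change of -0.10 (adjusted p = 0.537). Plg had at most 3 counts in every library and was not tested.

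Among the regulators of Vegfa transcription and mRNA, 7 of 20 rose and 8 fell (median -0.11), beside 27.0% and 27.6% of all tested genes. The hypoxia-inducible factor Hif1a rose, from 67.0, 76.8 and 97.7 CPM in WT replicates to 149, 151 and 154 CPM in Gpr174-/Y replicates (log2 fold change 0.91, SE 0.13, adjusted p = 0.00196), while its endothelium-enriched relative Epas1 fell, from 182, 164 and 140 CPM to 100.1, 96.0 and 95.03 CPM (log2 fold change -0.74, SE 0.097, adjusted p = 0.00157). Neither gene overlapped between groups, and these are mRNA levels of factors whose activity is set largely by protein stability. Ppargc1a, the coactivator that raises Vegfa in exercised muscle, fell from 42.1, 55.3 and 80.2 CPM in WT to 23.0, 28.9 and 36.9 CPM in Gpr174-/Y replicates (adjusted p = 0.0167), as did its partners Esrra (-0.56, adjusted p = 0.00622) and Esrrg (-0.71, adjusted p = 0.00167). Ppargc1b of the same list did not pass (-0.23, adjusted p = 0.0871). Within each group Ppargc1a rose from replicate 1 to replicate 3, whereas Vegfa fell, and a link between them was not tested. Stat3 rose by 0.45 (adjusted p = 0.00451).

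Below the receptors, 11 of 44 signalling genes rose and 12 fell (median -0.01), and 21 did not pass, beside 27.0% and 27.6% of all tested genes that rose and fell. Nos3, the endothelial nitric oxide synthase, fell from 40.0, 37.6 and 37.8 CPM in WT to 23.4, 22.1 and 20.1 CPM in Gpr174-/Y replicates (log2 fold change -0.81, SE 0.069, adjusted p = 0.0007). The calcineurin subunit Ppp3r1 fell too (-0.55, adjusted p = 0.00391). The adaptor Shb (0.80, adjusted p = 0.00142) and the protein kinase Prkcb (0.73, adjusted p = 0.00191) rose.

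In the list of receptor trafficking and restraint, 8 of 20 rose and 8 fell (median 0.09), beside 27.0% and 27.6% of all tested genes. Thbs1 and Thbs2, secreted thrombospondins that oppose angiogenesis, had the largest rises. Thbs1 went from 104, 154 and 218 CPM in WT to 385, 394 and 416 CPM in Gpr174-/Y replicates (log2 fold change 1.33, SE 0.24, adjusted p = 0.00454), and Thbs2 rose by 1.54 (SE 0.32, adjusted p = 0.00691). WT replicate 3 was the highest and WT replicate 1 the lowest of its group for both, and no WT library reached the Gpr174-/Y range. Ptprb, the vascular endothelial phosphatase that acts on Kdr and Tie2, fell (log2 fold change -0.90, SE 0.068, adjusted p = 0.000552), as did the MAP kinase phosphatase Dusp1 (-0.82, adjusted p = 0.000871).

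Of 19 genes that VEGF is known to induce in endothelium, 4 rose, 6 fell and 9 did not pass (median 0.07), again beside 27.0% and 27.6% of all tested genes. Rcan1, a calcineurin target, had 118, 162 and 221 CPM in WT and 89.4, 81.0 and 66.2 CPM in Gpr174-/Y replicates, a log2 fold change of -1.08 (SE 0.23, adjusted p = 0.00756). The orphan nuclear receptor Nr4a1 fell as well (-1.12, SE 0.27, adjusted p = 0.0132). In contrast, the early growth response factor Egr3 rose from 5.60, 6.01 and 6.29 CPM to 14.5, 14.1 and 15.2 CPM (log2 fold change 1.29, SE 0.078, adjusted p = 0.000374). The tip cell gene Esm1 rose at a low level (0.77, SE 0.19, adjusted p = 0.0146).

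Semaphorins and plexins, the other partners of neuropilins, were also split, with 5 of 12 higher and 4 lower (median -0.07). Among all tested genes 27.0% were higher and 27.6% lower. Sema3d rose from 1.99, 2.14 and 2.87 CPM in WT to 5.40, 5.70 and 4.56 CPM in Gpr174-/Y replicates (log2 fold change 1.15, SE 0.17, adjusted p = 0.0021), and Sema3e rose by 0.78 (adjusted p = 0.00747). Sema3f, a ligand of Nrp2, had a log2 fold change of -0.31 (SE 0.057, adjusted p = 0.00438) and the plexin Plxna4 one of -0.31 (SE 0.11, adjusted p = 0.0478).

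**Figure D5:**
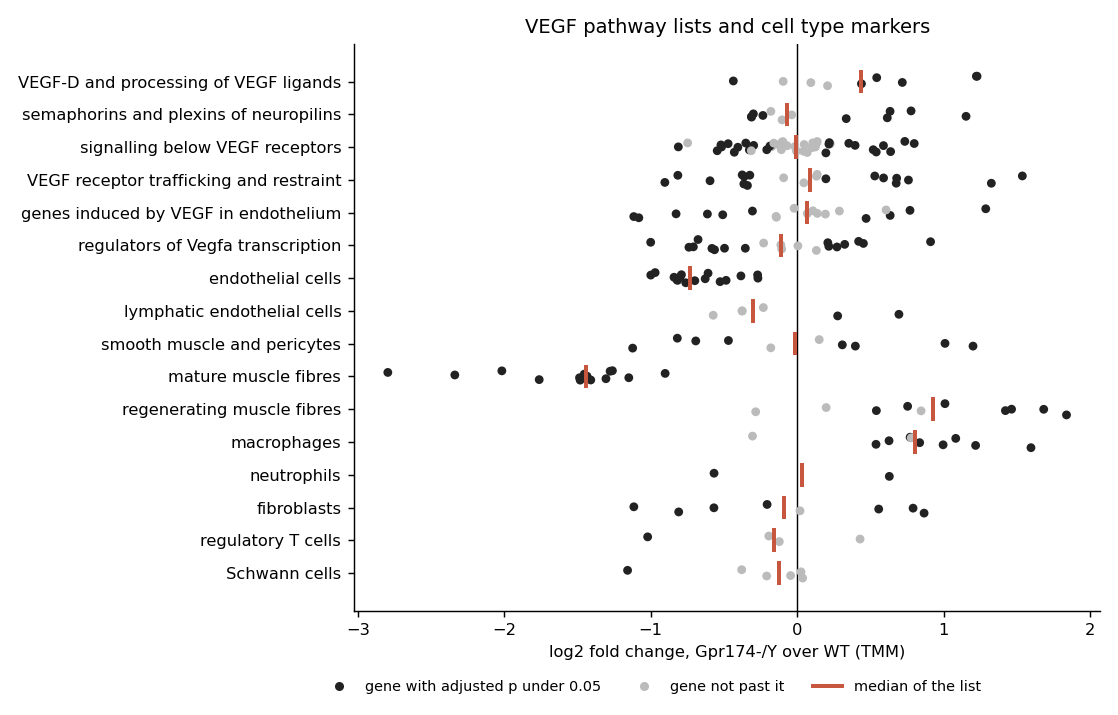
Log2 fold change of Gpr174-/Y over WT with TMM (x axis) for each tested gene of the 6 pathway lists and 10 cell type marker lists (rows), in black where the adjusted p was under 0.05 and grey otherwise, with list medians as bars. The pathway lists spread to both sides of 0, while all endothelial and mature fibre markers lay below 0 and most macrophage markers above it.

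Genes were also ranked by how closely they followed Vegfa and Kdr across the 6 libraries. By Pearson's r of log2 CPM over 9965 genes of at least 10 mean CPM, the 3 most like Vegfa were Atp5j, a subunit of mitochondrial ATP synthase (r = 0.9999), Smyd1, a muscle methyltransferase (r = 0.9999), and Tle5, a corepressor (r = 0.9999). For Kdr they were Tspan7, a tetraspanin (r = 0.99996), the iron-sulfur scaffold Iscu (r = 0.9999) and Mto1, a mitochondrial tRNA-modifying enzyme (r = 0.9998). Such values were common, as 2022 genes had an r over 0.95 with Vegfa and 2170 with Kdr. The 6 libraries fall in 2 groups, so the values are descriptions of this set of libraries and carry no test.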

How the data were processed

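Ischemic gastrocnemius RNA of 3 WT and 3 Gpr174-/Y mice was sequenced, on a BGISEQ-500 by the methods and with an Illumina kit by the labels. For 58843 RefSeq transcripts the authors deposited expected counts, which are estimated reads per transcript without normalization, and FPKM and TPM, scaled by the authors for transcript length and library size. The submitters' processing notes name HISAT2 2.0.4, Bowtie2 2.2.5, RSEM 1.2.12 and GRCm39. The strand setting is not given in the sources used here. The authors' group means were not used. No per-sample column was left over.

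Expected counts were summed per Entrez gene and rounded (18089 genes, 99.7% with a symbol). Genes were fitted with edgeR 4.0.16 (TMM, filterByExpr, robust quasi-likelihood test) in R 4.3.3 over the 6 libraries, with Benjamini-Hochberg adjustment over 14395 genes, and transcripts likewise over 35524 rows. The common dispersion was 0.00967 for genes and 0.607 for transcripts. A call is an adjusted p under 0.05, with or without an absolute log2 fold change above 1. Single values were compared by 2-sided exact permutation tests. The same steps were tested on simulated data, where all of 100 genes changed by a log2 fold of 1 were recovered among 14377 genes, but none of 100 transcripts at the transcripts' own dispersion. A small share of genes was changed there, as many up as down, in independent libraries. The simulation therefore does not test the scaling or the independence of the libraries here.

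The members and all lists were chosen with earlier results of these data known. Named genes are the 9 members, up to 2 largest rises and falls of each pathway list with a mean of at least 1 CPM, 3 most similar genes for Vegfa and Kdr, Gpr174, Ckm, Myh4, Pecam1 and Cdh5. Adamts3, Vegfd, Plg, Ppargc1b, Esrra, Esrrg, Ly6g and Ctla4 were named after their values were seen. So were the markers Myh1, Eng, Ecscr, Pdpn, Prox1, Lyve1, Ccl21a, Mmrn1, Reln, Acta2, Myh11, Rgs5, Kcnj8, Abcc9, Col1a1, Col1a2, Col3a1, Pdgfra, Dcn, Lum and Pi16. Promoters are from RefSeq on GRCm38.p6, a build other than that of the counts, and all 9 genes matched. Chromosomes are from the same annotation. Alternatives were DESeq2 1.42.0, limma 3.58.1 (voom, and log2 FPKM with pseudocounts of 1 and 0.1 for genes of at least 1 FPKM in 3 libraries), other scalings and filters, a replicate block, fewer libraries, and for the endothelial comparison a prior count of 0.5 in place of 2 and the median of the markers.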

Additional observations from a re-analysis of the deposited data

How the results depend on the processing

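Vegfa, Vegfb, Flt1, Kdr and Flt4 stayed below 0 and Vegfc and Nrp2 above 0 in all 17 alternative fits, while Nrp1 turned to 0.20, 0.19 and 0.20 with total counts and with limma on log2(FPKM + 1) and log2(FPKM + 0.1), and Pgf ranged from -0.021 (without WT replicate 1) to 0.066 (without WT replicate 3) over fits without a single library. With replicates 1 and 3 of each group alone, 0 of the 9 genes and 0 of 124 pathway genes passed (edgeR), with 5 and 54 at an unadjusted p under 0.05, and Vegfa had a log2 fold change of -1.17 (adjusted p = 0.0542). In that fit no gene of 14447 passed, and 5026 did so unadjusted. Over fits without a single library, 5 to 7 of the 9 genes and 58 to 91 pathway genes passed, beside 5457 to 9165 of all tested genes. Over those fits Vegfa ranged from -1.27 to -1.09 (highest adjusted p 0.00868). Of the 9 genes, 5 passed with DESeq2, beside 6815 of 14395 tested genes, and 6 with voom, beside 7895. With either FPKM fit 8 passed, beside 8661 (pseudocount 1) and 8634 (pseudocount 0.1) of 12525 tested genes. In both FPKM fits Pgf and Nrp1 passed as higher, and Flt4 did not pass.

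Same-numbered mice are different animals, and their deviations over all tested genes correlated at 0.016, -0.028 and -0.008. No general pairing by replicate number was seen, but these values cannot exclude shared handling of same-numbered libraries. With a replicate block 5 of the 9 genes passed, beside 6812 of 14395 tested genes. Vegfc (0.50, adjusted p = 0.0636) and Nrp2 (0.15, adjusted p = 0.0576) no longer did. With the block 70 pathway genes passed and 0 Vegfa transcript rows, against 1 row without it. The count of Vegfa rows ranged from 0 to 1 over fits without a single library. Against the median of the endothelial markers, Flt4 was 0.31 higher. With 47 to 111 counts, Vegfc is the member that depth limits most. The cause of these changes was not tested.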
